A study of Mus musculus with 4 samples.

Results

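Zc3h7a, Fam169b, Pde5a and Ly6a are the 4 genes described here, of 31950 gene IDs that both gene expression libraries of the study list. They were chosen by their UMI levels in T cell and innate lymphoid cell (ILC) barcodes, which were higher in A20ZF7 mice than in WT mice, so those values are a description and carry no test. The question was whether that difference stopped at lymphocytes or ran through the whole library, and the values in stromal, myeloid, plasma and other barcodes, which were not part of the choice, bear on it. All 4 were matched by gene ID, and both lists gave each of them the same symbol.

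Single-cell RNA-Seq (scRNA-Seq) was run on lamina propria cells of the proximal small intestine, from WT mice and from homozygous A20ZF7 mice, which carry knock-in point mutations in the M1-ubiquitin-binding zinc finger 7 of A20, the protein made from Tnfaip3. The level of Tnfaip3 is therefore no check on genotype. Each genotype was 1 library of cells pooled from 2 mice at 12 weeks of age, after a kit had depleted other cells to leave T cells and ILCs, and 60000 cells per genotype went into a 5′ kit. With 1 library per genotype no test between genotypes exists, and every interval in parentheses is a 95% interval that covers counting error only.

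Ly6a encodes Sca-1, a small protein that a lipid (GPI) anchor holds on the cell surface. It is known from blood stem cells, activated T cells, endothelium and fibroblasts, and it responds to interferons. Pde5a encodes the phosphodiesterase that breaks down cyclic GMP, best known from smooth muscle, where it ends relaxation by nitric oxide. Zc3h7a encodes a zinc finger protein of the CCCH type, a family that binds RNA.

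A barcode counted as a cell at 675 UMIs or more in WT and 396 or more in A20ZF7, within the study's limits on genes and mitochondrial counts. That left 14753 WT barcodes with a median of 1059 UMIs and 43218 A20ZF7 barcodes with a median of 853 UMIs. The libraries shared 913 of these barcode sequences, 6.19% of those in WT. Marker UMIs then placed 78.3% of WT and 63.9% of A20ZF7 barcodes in a class. T cell and ILC barcodes numbered 3062 in WT and 12710 in A20ZF7. They divided into CD8 T (330 and 1245), other T (1941 and 10308, CD8 T cells without a captured Cd8 UMI included), ILC2 (439 and 317) and ILC3 (352 and 840) barcodes. Outside them were stromal (7466 and 13760), plasma (264 and 394), myeloid (99 and 336), endothelial (217 and 302) and epithelial (447 and 89) barcodes. Stromal barcodes were the largest single class in both libraries. B cells other than plasma cells came to 2 barcodes in WT and 5 in A20ZF7, too few to describe, so plasma cells stand for the B lineage. Plasma cells are lymphocytes as well, but the word is used here for the T cell and ILC classes alone, and plasma barcodes are given apart. The T cell markers, summed, lay at 3829 CPM (counts scaled to the UMI total of the class) in CD8 T barcodes of WT and 3562 CPM in those of A20ZF7. In stromal barcodes they lay at 309 CPM in WT and 776 CPM in A20ZF7, and all 6 of the markers were detected in both. T cell marker UMIs were thus present in stromal barcodes, more of them in A20ZF7. In ILC2, ILC3 and plasma barcodes these markers were at 0 because the gate required it. T cells without a captured marker UMI could therefore still be among them. Cd4 lay at 7.00 CPM in WT and 51.3 CPM in A20ZF7 in ILC2 barcodes, and at 24.9 and 99.5 CPM in ILC3 barcodes. In other T barcodes Cd4 lay at 116 and 182 CPM. How many T cells the ILC classes held was not tested.

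The lists of gene IDs differ between the libraries, with 33696 IDs in WT and 32285 in A20ZF7, and 1905 shared IDs carry another symbol in the other list. The IDs outside the shared set held 0.334% of WT UMIs and 3.41% of A20ZF7 UMIs. One shared ID, 5730419F03Rik, had 1484 UMIs in WT T cell and ILC barcodes and 0 in the A20ZF7 library's. How far the gene models behind a shared ID differed between the libraries was not tested for the 4 genes.

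The genes lie on different chromosomes. In GRCm38 coordinates of the GENCODE annotation, Zc3h7a spans chr16:11136592-11176393 on the minus strand and Fam169b spans chr7:68273839-68363092 on the plus strand. Pde5a spans chr3:122728947-122859374 on the plus strand and Ly6a spans chr15:74994877-74998031 on the minus strand. No annotated gene overlaps Ly6a, and no gene in either list overlaps Zc3h7a. In both lists 2 other genes overlap Fam169b and 1 overlaps Pde5a. The 250 bases upstream of a start were searched on both strands for the NF-kB motif and the interferon-stimulated response element (ISRE, a pair of GAAA runs 2 bases apart). RefSeq windows of GRCm38.p6 were at hand for Zc3h7a, Fam169b and Pde5a. Of all 32851 windows, 3.90% held the NF-kB motif and 2.98% the ISRE. The only match among the 3 genes was an ISRE upstream of the second start of Fam169b. One upstream window per gene follows, 5′ to 3′ on the gene's strand, to show how unlike they are, with the ISRE in capitals. They are chr16:11176394-11176643 (minus strand), chr7:68275734-68275983 (plus) and chr3:122728908-122729157 (plus).
Zc3h7a: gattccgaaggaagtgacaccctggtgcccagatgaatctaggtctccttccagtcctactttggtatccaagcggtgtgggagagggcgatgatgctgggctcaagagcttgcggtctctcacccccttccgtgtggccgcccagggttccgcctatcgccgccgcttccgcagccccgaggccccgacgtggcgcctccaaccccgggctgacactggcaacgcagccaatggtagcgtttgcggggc
Fam169b: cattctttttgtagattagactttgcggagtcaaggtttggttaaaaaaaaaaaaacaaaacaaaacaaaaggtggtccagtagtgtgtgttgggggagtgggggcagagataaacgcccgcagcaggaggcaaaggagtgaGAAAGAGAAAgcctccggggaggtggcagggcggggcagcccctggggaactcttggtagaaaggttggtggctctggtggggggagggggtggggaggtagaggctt
Pde5a: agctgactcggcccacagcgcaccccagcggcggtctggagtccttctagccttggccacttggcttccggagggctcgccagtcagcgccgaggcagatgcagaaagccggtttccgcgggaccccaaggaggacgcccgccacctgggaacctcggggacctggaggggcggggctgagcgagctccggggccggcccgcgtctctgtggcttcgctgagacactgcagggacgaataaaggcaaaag
The Zc3h7a window was 64.4% G and C with 19 CpG, the Pde5a window was 68.4% with 22 CpG, and the Fam169b window was 53.2% with 5 CpG, beside a median of 52.4% over all windows.

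Summed over T cell and ILC barcodes, all 4 genes had a higher level in A20ZF7. Zc3h7a lay at 99.6 CPM (89.2–111) in WT and 430.3 CPM (419–442) in A20ZF7, 4.32-fold (3.87–4.84). Fam169b lay at 59.7 CPM (51.7–68.5) and 219 CPM (211–227), 3.67-fold (3.18–4.26). Pde5a lay at 86.2 CPM (76.5–96.7) and 241 CPM (233–250), 2.80-fold (2.48–3.17). Ly6a lay at 158 CPM (145–172) and 287 CPM (278–296), 1.82-fold (1.66–2.0). Thus 3 of the 4 were 2-fold or more higher, where 84 of 3529 genes tested were (2.38%) and the median gene was at 1.02-fold. A gene counted as tested where its higher level reached 50 CPM on 20 UMIs. All 4 genes met that in the 4 lymphocyte classes and in stromal, myeloid and endothelial barcodes, but Fam169b and Pde5a did not in plasma and Fam169b did not in epithelial barcodes. This contrast chose the genes, so nothing is read from that count.

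Outside lymphocytes the 4 genes parted company. In stromal barcodes Zc3h7a and Fam169b were higher by more than in T cells and ILCs, at 12.5-fold (11.6–13.5) and 8.71-fold (7.12–10.8). Ly6a was 2.02-fold higher (1.96–2.09), close to its lymphocyte value, and Pde5a was at 1.15-fold (1.07–1.22). Hence 3 of the 4 were past 2-fold in stromal barcodes, where 201 of 4071 genes tested were (4.94%) and the median gene was at 0.99-fold. The 4 genes were chosen on lymphocytes of the same libraries, so this count carries no test against that share. In all, 17 genes were 2-fold or more higher in T cell and ILC, stromal, 10 to 100 UMI and 1 to 9 UMI barcodes alike. Most of them had a larger stromal than lymphocyte fold, such as Il17a (12.1 and 5.23) and Tigit (6.51 and 2.17). Only Ndufb4 (7.57 and 8.21), Il1r2 (4.06 and 5.05) and Traf3 (2.59 and 2.89) went the other way. Whether T cell RNA in stromal barcodes gave the larger folds was not tested. The ratio of the lymphocyte fold to the stromal fold was 0.345 for Zc3h7a (0.302–0.395), 0.421 for Fam169b (0.329–0.539), 0.898 for Ly6a (0.815–0.99) and 2.44 for Pde5a (2.13–2.80). By this ratio Pde5a alone among the 4 differed more between the genotypes in lymphocytes than in stroma. The mix of stroma differed, with 1634 muscle barcodes in WT and 1083 in A20ZF7, beside 5067 and 11621 fibroblast barcodes. Against fibroblast barcodes alone the ratio was 1.99 (1.72–2.30) for Pde5a and 1.09 (0.987–1.20) for Ly6a. Against muscle barcodes alone it was 2.63 (2.18–3.18) and 0.432 (0.344–0.542).

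**Figure D1:**
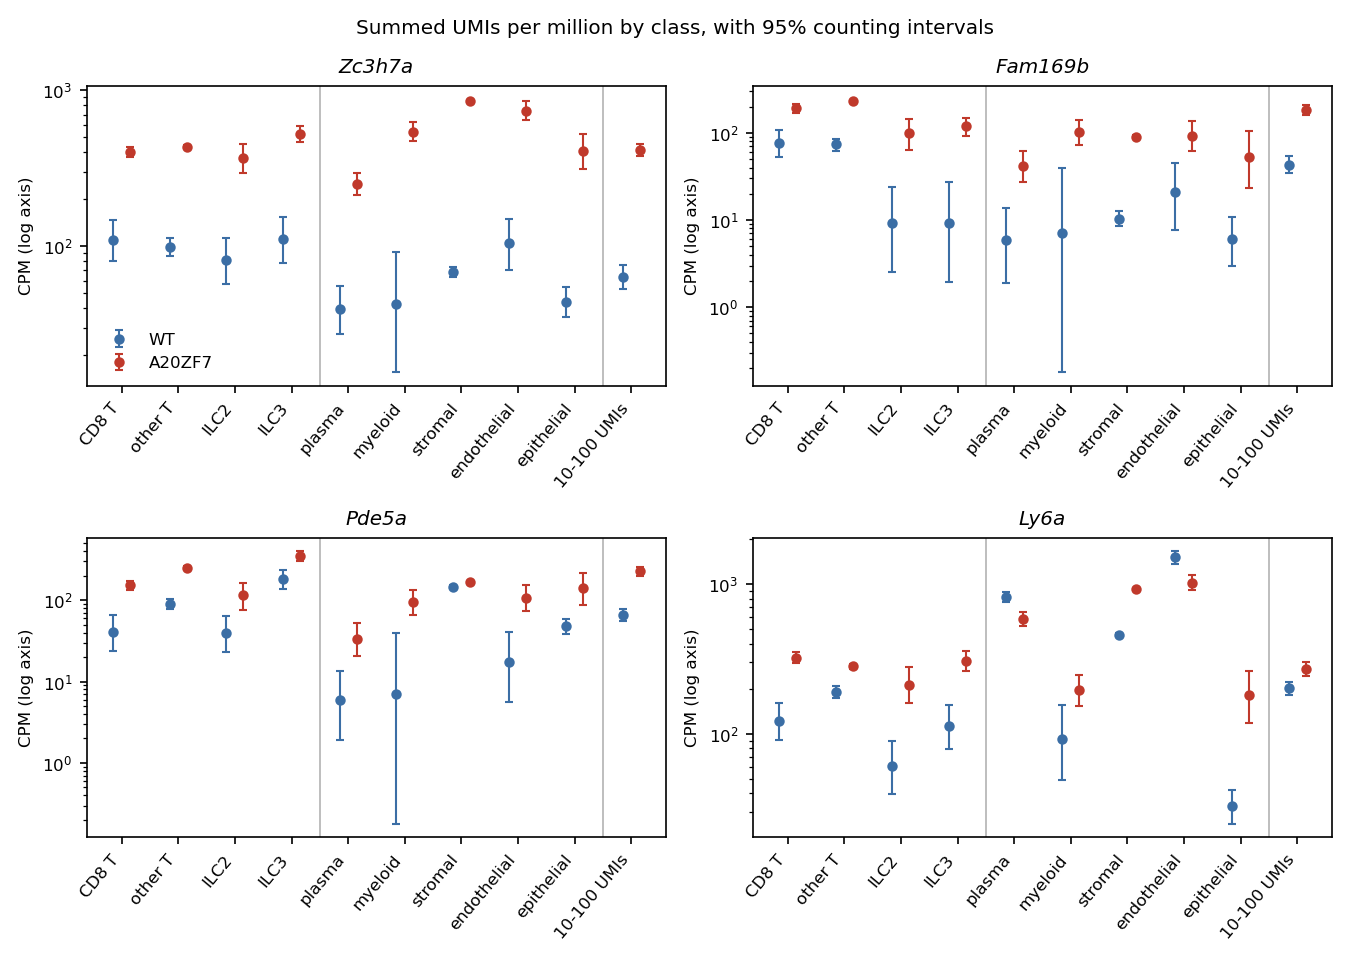
Level of each gene by class in WT (blue) and A20ZF7 (red), in CPM of summed UMIs on a log axis, with 95% counting intervals. The lines set T cell and ILC classes to the left, other classes in the middle and barcodes of 10 to 100 UMIs to the right. Zc3h7a is higher in A20ZF7 in every class drawn, and Ly6a is lower in plasma and endothelial barcodes.

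Zc3h7a was higher in A20ZF7 in every class examined. In CD8 T barcodes it lay at 110 CPM in WT and 403 CPM in A20ZF7, 3.66-fold (2.71–5.05), where 3.39% of genes tested were past 2-fold. In other T barcodes it lay at 99.3 and 431 CPM, 4.34-fold (3.78–4.99), where 2.45% of genes were past 2-fold. In ILC2 barcodes it lay at 81.7 and 367 CPM, 4.49-fold (3.02–6.83), and in ILC3 barcodes at 112 and 527 CPM, 4.70-fold (3.32–6.84). Of the genes tested, 5.75% were past 2-fold in ILC2 and 6.82% in ILC3 barcodes. The 4 classes thus gave nearly the same fold, with intervals that overlap throughout.

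Among the classes that did not choose Zc3h7a, stromal, myeloid and epithelial barcodes gave a larger fold than T cells and ILCs, and the interval of endothelial barcodes just met the lymphocyte one. For plasma the ratio of the lymphocyte fold to the plasma fold was 0.684 (0.464–1.01), and over the median gene of its class Zc3h7a was at 4.16-fold in plasma and 4.24-fold in T cell and ILC barcodes. It lay at 39.8 CPM in WT and 251 CPM in A20ZF7 in plasma barcodes (6.32-fold, 4.33–9.46), where 26.8% of genes were past 2-fold and the median gene was at 1.52-fold. In myeloid barcodes it lay at 42.3 and 544 CPM (12.9-fold, 5.81–35.5), where 14.6% of genes were past 2-fold and the median gene was at 1.24-fold. In stromal barcodes it lay at 68.5 and 858 CPM, with fibroblast barcodes at 12.1-fold (4.9% of genes past 2-fold) and muscle barcodes at 10.8-fold (7.72% of genes). Endothelial barcodes were at 7.09-fold (4.82–10.8), with 7.69% of genes past 2-fold, and epithelial barcodes at 9.23-fold (6.51–13.0), with 12.7% of genes past 2-fold and the median gene at 0.766-fold. In WT the highest levels were in ILC3, CD8 T, endothelial and other T barcodes, whose intervals overlap. In A20ZF7 the order was turned, with stromal barcodes highest, and T cell and ILC barcodes together held 0.502 times the stromal level (0.486–0.518), against 1.45 times in WT (1.27–1.66). Only 3 of 4071 genes tested in stromal barcodes had a larger fold than Zc3h7a.

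The share of barcodes with a Zc3h7a UMI followed its level. In T cell and ILC barcodes it was 9.99% (8.95–11.1) in WT and 31.2% (30.4–32) in A20ZF7. After each barcode was thinned to 500 UMIs, leaving out 1730 shallower A20ZF7 barcodes and 0 in WT, it was 5.19% and 18.0%. In stromal barcodes the thinned share was 3.44% in WT and 31.6% in A20ZF7, above the lymphocyte share in A20ZF7 only, and without thinning it was 8.37% and 51.4%. No class is known to lack Zc3h7a, and the lowest thinned shares were those of plasma barcodes, 2.27% in WT and 13.6% in A20ZF7. Before thinning, median depth was 905 and 857 UMIs in T cell and ILC barcodes and 1135 and 1001 UMIs in stromal barcodes.

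In WT, Fam169b was highest in T cells. It lay at 76.6 CPM (52.4–108) in CD8 T and 73.7 CPM (62.7–86.0) in other T barcodes of WT, and between 5.85 and 21.0 CPM in the other 7 classes. T cell and ILC barcodes together held 5.76 times its stromal level (4.51–7.39). The ILC2 level in WT, 9.34 CPM, rested on 4 UMIs, and the ILC3 level, also 9.34 CPM, on 3 UMIs. In A20ZF7 the same T cell classes were highest, at 191 CPM in CD8 T and 231 CPM in other T barcodes, and no class lay below the 41.9 CPM of plasma barcodes.

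Within T cells and ILCs, the fold of Fam169b was smallest where its WT level was highest. It was 2.49-fold (1.73–3.71) in CD8 T and 3.14-fold (2.68–3.70) in other T barcodes, but 10.6-fold (3.65–41.8) in ILC2 and 12.7-fold (4.16–63.0) in ILC3 barcodes. T cells without a captured T cell marker UMI may be among these ILC barcodes, which was not tested. Other T barcodes with a Foxp3 UMI, the marker of regulatory T cells, were at 269 CPM in WT and 257 CPM in A20ZF7, 0.953-fold (0.573–1.70), with 46 WT barcodes and 17.9% of genes past 2-fold. The interval spans lower and higher levels alike, so no direction can be read for Foxp3 T barcodes, and the median gene there was at 1.28-fold.

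Outside T cells and ILCs, Fam169b lay at 5.85 and 41.9 CPM in plasma (7.16-fold, 2.69–23.9), 10.4 and 90.3 CPM in stromal, and 7.05 and 103 CPM in myeloid barcodes. The myeloid WT level is 1 UMI, and the fold of 14.6 has an interval of 2.47 to 591. Since stromal barcodes held T cell RNA, they were also read without any barcode that held a UMI of the T cell markers, a choice made after the values had been seen. That left 79.9% of stromal barcodes in WT and 56.3% in A20ZF7, with Fam169b at 4.32 CPM in WT and 58.5 CPM in A20ZF7, 13.5-fold (9.39–20.2). Both levels were lower than over all stromal barcodes, and the fold was larger. A barcode without such a UMI can still hold T cell RNA, and how much was left was not tested. Read the same way, Zc3h7a was at 12.9-fold, Ly6a at 2.17-fold and Pde5a at 1.02-fold (0.934–1.11). Hashtags named a mouse for only 1201 and 1335 of the 7466 WT stromal barcodes. Against these the stromal fold was smaller, 5.44 for the first mouse and 5.16 for the second, with Fam169b at 16.6 and 17.5 CPM. Both lay above the 10.4 CPM of all WT stromal barcodes. The barcodes with no call thus lay lower, and these folds are those of a subset of barcodes.

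Pde5a differed between the genotypes in T cells and ILCs and in endothelial, epithelial, plasma and myeloid barcodes, and less so in stroma. In CD8 T barcodes it lay at 40.7 CPM (23.7–65.1) in WT and 152 CPM (134–173) in A20ZF7, 3.74-fold (2.29–6.53). In other T barcodes it lay at 90.1 and 252 CPM, 2.79-fold (2.41–3.24), and in ILC2 barcodes at 39.7 and 115 CPM, 2.88-fold (1.53–5.60). Of the 4 T cell and ILC classes, ILC3 had the highest level in both genotypes, 181 CPM (137–233) in WT and 348 CPM (302–400) in A20ZF7. Its fold was the smallest of the 4 classes, 1.93 (1.43–2.63).

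The stromal level of Pde5a was 145 CPM (137–152) in WT and 166 CPM (160–172) in A20ZF7. Muscle barcodes, where this enzyme is best known, had 228 CPM (209–249) in WT and 242 CPM (215–271) in A20ZF7, 1.06-fold (0.917–1.23). Fibroblast barcodes had 112 and 157 CPM, 1.41-fold (1.29–1.53). In stromal barcodes without a UMI of T cell, B cell, myeloid, endothelial, epithelial, mast cell or glia markers, Pde5a was at 0.994-fold. ILC and plasma markers were not part of that rule. With free RNA taken off, Pde5a was at 0.967-fold in stroma. After thinning to 500 UMIs, 6.75% of WT and 7.94% of A20ZF7 stromal barcodes held a Pde5a UMI, and 4.11% and 11.1% of T cell and ILC barcodes. Without thinning the shares were 16.1% and 16.3% in stromal and 7.97% and 19.7% in T cell and ILC barcodes. Plasma barcodes, with the lowest level, had 0.379% and 2.14%, from median depths of 3168.5 and 1443 UMIs before thinning. The WT library thus had Pde5a lower in lymphocytes than in stroma, at 0.596 times (0.523–0.677), and the A20ZF7 library had it higher, at 1.45 times (1.38–1.53). The classes other than T cells, ILCs and stroma also had more Pde5a in A20ZF7, with 17.5 and 107 CPM in endothelial barcodes (6.13-fold, 2.36–20.2). In epithelial barcodes it lay at 48.0 and 140 CPM (2.92-fold, 1.72–4.75), with 89 barcodes in A20ZF7. In plasma barcodes, where it was under the filter, it lay at 5.85 CPM on 5 UMIs in WT and 33.5 CPM in A20ZF7 (5.73-fold, 2.09–19.5). In myeloid barcodes it lay at 7.05 CPM on 1 UMI in WT and 94.8 CPM in A20ZF7 (13.4-fold, 2.26–546).

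Ly6a had the widest range of levels among WT classes, and its difference between genotypes changed direction among classes. It lay at 122 CPM (90.9–160) in WT and 324 CPM (296–353) in A20ZF7 in CD8 T barcodes, 2.65-fold (1.99–3.61). In other T barcodes it lay at 190.4 CPM (172–210) and 282 CPM (272–292), only 1.48-fold (1.34–1.65). In ILC2 barcodes it lay at 60.7 and 213 CPM, 3.51-fold (2.16–5.84), and in ILC3 barcodes at 112 and 307 CPM, 2.74-fold (1.91–4.04). The other T class held most T cells, so the summed lymphocyte fold of 1.82 lies below the geometric mean of the 4 classes, 2.48. With the first gate, which had neither the plasma limit nor the need for a core ILC3 gene, the ILC3 fold was 0.800. With the plasma limit alone dropped it was 1.87, and with the core gene alone dropped it was 2.63, both run after the values had been seen.

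Ly6a was highest outside T cells and ILCs. Endothelial barcodes, known to carry Sca-1, had 1516 CPM (1376–1665) in WT and 1026 CPM (912–1149) in A20ZF7, 0.677-fold (0.582–0.786). Plasma barcodes had 821 CPM (762–884) in WT and 586 CPM (526–651) in A20ZF7, 0.714-fold (0.626–0.813). Fibroblast barcodes had 615 and 1027 CPM, 1.67-fold (1.61–1.73), and muscle barcodes had 57.3 and 241 CPM, 4.21-fold (3.41–5.22). By these values the classes with the highest WT levels were lower in A20ZF7. Those with the lowest, muscle, ILC2 and epithelial barcodes, had the largest folds, of which the WT level is itself the divisor. The muscle fold was smaller against the WT mice that hashtags name, 1.90 (1.40–2.64) and 2.25 (1.63–3.19). Ly6a lay at 127 and 107 CPM in their muscle barcodes, 229 in each of the 1634 in WT. Both lay above the 57.3 CPM of all WT muscle barcodes, so those with no call lay lower. Depth differed as well, with plasma medians of 3168.5 UMIs in WT and 1443 UMIs in A20ZF7. After thinning to 500 UMIs, 22.7% (17.8–28.3) of WT and 20.3% (16.4–24.8) of A20ZF7 plasma barcodes held a Ly6a UMI, and 37.8% (31.3–44.6) and 33.3% (27.6–39.4) of endothelial barcodes. Both pairs of intervals overlap, and 20 plasma and 41 endothelial barcodes of A20ZF7 were too shallow to enter. Without thinning the shares were 59.1% and 36.8% in plasma and 55.3% and 47.4% in endothelial barcodes. Epithelial barcodes were at 32.7 and 180.4 CPM, 5.51-fold (3.36–8.82), with 89 barcodes in A20ZF7. Myeloid barcodes were at 91.7 and 195 CPM, 2.13-fold (1.17–4.19), but at 0.758-fold when barcodes were assigned by profile likelihood.

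**Figure D2:**
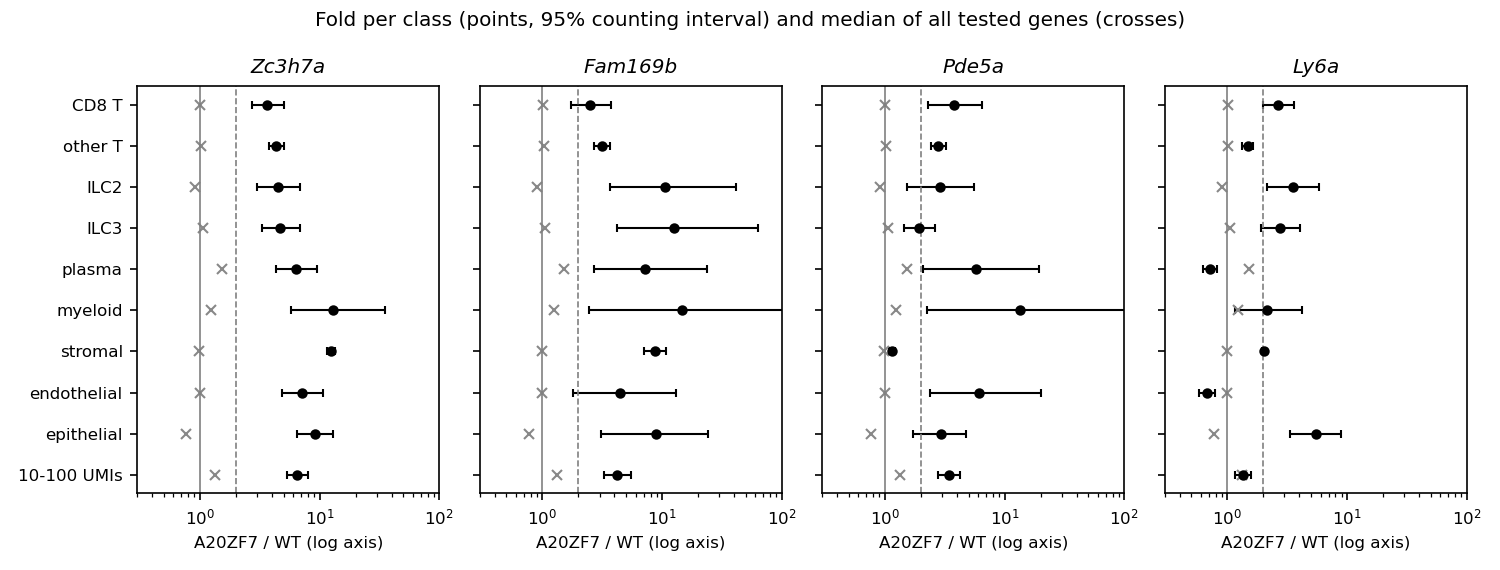
Fold of A20ZF7 over WT for each gene by class on a log axis, with 95% counting intervals. Crosses mark the median of all genes tested in the class, and the lines stand at 1-fold and 2-fold. Points for Zc3h7a lie between 3.66 and 12.9, those for Ly6a between 0.677 and 5.51, and Pde5a in stromal barcodes lies at 1.15. Some myeloid intervals run past the axis.

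The WT antibody library gave a second readout of Ly6a, since 1 of its 138 antibodies was to Sca1. That antibody carries the oligo ttcctttcctacgca, and the deposited antibody files of the genotypes were identical, so they were read for WT alone. Endothelial barcodes, with a median of 3087 antibody UMIs where the other classes had 1592 to 1980, had the most Sca1, 75.3 per 10000 antibody UMIs, followed by plasma at 27.1 and stromal at 22.7, and the other classes lay between 15 and 17.9. Over the 9 classes Spearman's rho between the Ly6a level and the Sca1 share was 0.800, as a description of 1 library. Within a class, barcodes with a Ly6a UMI had a larger share of Sca1 among antibody UMIs than those without. The shares were 90.7 and 32.8 per 10000 in endothelial, 31.7 and 18.7 in stromal, and 26.2 and 15.9 in T cell and ILC barcodes. In myeloid barcodes they were 15.6 and 15, with 10 barcodes holding a Ly6a UMI and a median of 1.5 Sca1 UMIs with a Ly6a UMI and 3 without. The 3 isotype control antibodies together took between 52.4 and 65.9 per 10000 in every class. In T cell and ILC barcodes they took 64.3, beside 17.3 for Sca1 on a median of 2 UMIs. Sca1 at 15 to 17.9 in the T cell, ILC, myeloid and epithelial classes was therefore not shown to lie above background. These are most of the 9 classes behind the rho. In stromal barcodes Sca1 was at 22.7 beside 63.5 for the 3 controls together, and in plasma barcodes at 27.1 beside 61.7. Endothelial barcodes alone had more Sca1 than the 3 controls together, 75.3 beside 52.4.

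**Figure D3:**
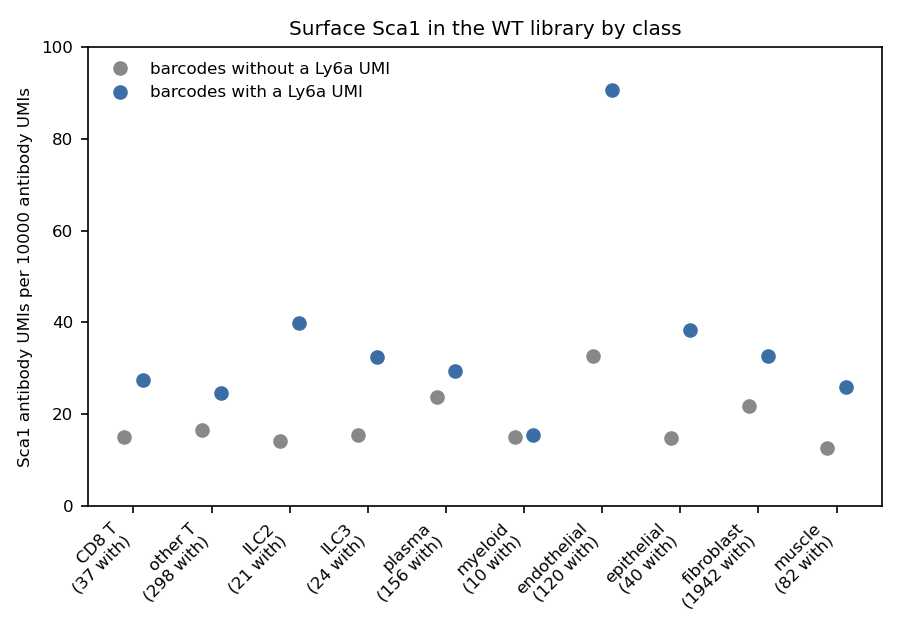
Sca1 antibody UMIs per 10000 antibody UMIs in the WT library by class, in barcodes without (grey) and with (blue) a Ly6a UMI. The number of barcodes with a Ly6a UMI stands under each class. Barcodes with a Ly6a UMI lie higher in every class, by 90.7 against 32.8 in endothelial and by 15.6 against 15 in myeloid barcodes.

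Of the 4 genes, 2 were past 2-fold in each of the 4 T cell and ILC classes, Zc3h7a and Fam169b. Pde5a was below it in ILC3 and Ly6a in other T barcodes. Of 2512 genes tested in all 4 classes, 11 passed (0.438%). The other 9 were Ndufb4, Areg, Hopx, Setbp1, Traf3, Tnfrsf9, Tank, Cdk6 and Iigp1. Ndufb4, a subunit of respiratory complex I, led with at least 4.86-fold in each class, and Areg, the growth factor amphiregulin, followed Zc3h7a at 3.03-fold or more. Tnfrsf9 encodes the activation receptor 4-1BB, Traf3 and Tank encode adaptors of TNF receptor signaling, and Iigp1 an interferon-inducible GTPase. The 11 genes were picked by the fold of A20ZF7 over WT in the same 2 libraries that the other barcodes come from. The shares of all genes that follow are therefore a description, and their contrast with the 11 carries no test. In stromal barcodes, where 4.94% of genes tested were past 2-fold, 9 of the 11 were. In barcodes of 10 to 100 UMIs, where 14.2% of genes were, all 11 were. With both conditions added, 9 of 2149 genes passed in every set (0.419%), Zc3h7a and Fam169b among them. The exceptions in stroma were Setbp1 at 0.987-fold and Cdk6 at 1.75-fold. T cell markers lay at 309 CPM in WT and 776 CPM in A20ZF7 stromal barcodes. In stromal barcodes without a UMI of these markers, a choice made after the values had been seen, the same 9 were past 2-fold, with Setbp1 at 1.0-fold and Cdk6 at 1.70-fold, where 4.5% of genes tested were.

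**Figure D4:**
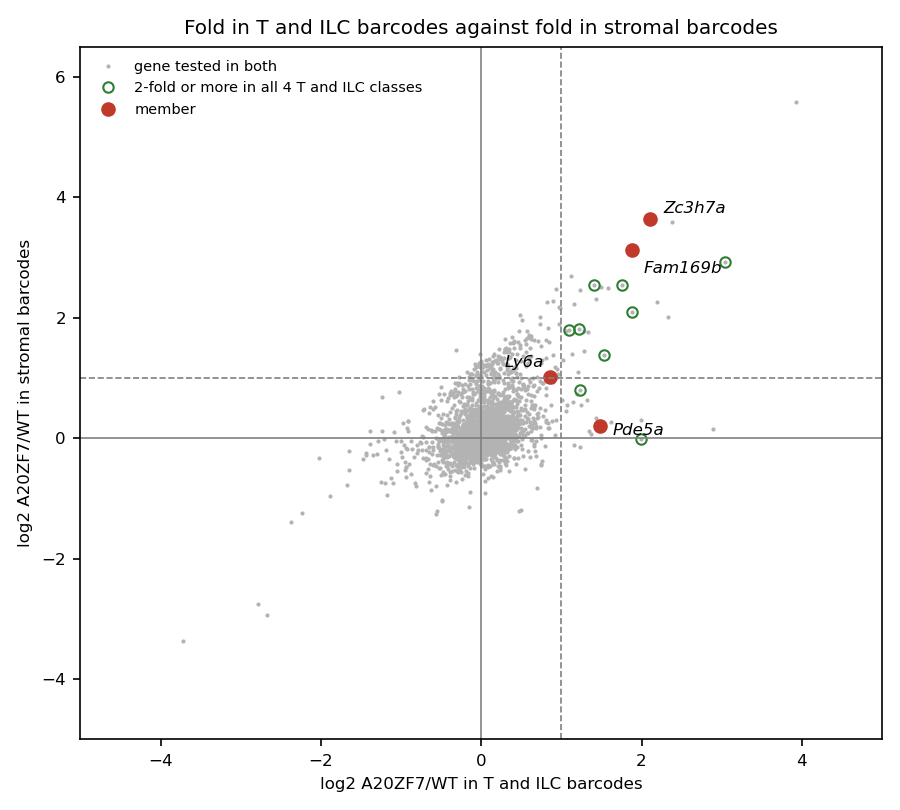
Log2 fold of A20ZF7 over WT in T cell and ILC barcodes (x) and in stromal barcodes (y) for 2819 genes tested in both, with the 4 genes in red and the other 9 genes past 2-fold in all 4 lymphocyte classes as green rings. Dashed lines mark 2-fold, and 1 gene lies outside the axes. Zc3h7a (2.11, 3.65) and Fam169b (1.88, 3.12) lie high on both axes, Ly6a (0.86, 1.02) nearer the cloud, and Pde5a (1.48, 0.20) to the right with little stromal difference.

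Barcodes with few UMIs, taken here as free RNA rather than cells, carried the difference as well. The make-up of those with 10 to 100 UMIs differed between the libraries. T cell markers lay at 822 CPM in WT and 1103 CPM in A20ZF7, and Ptprc, the marker of blood cells, at 615 and 1085 CPM. Stromal markers lay at 2995 and 1623 CPM, and epithelial markers at 1354 and 144 CPM. Whether this mix gave the folds was not tested. In barcodes of 10 to 100 UMIs, Zc3h7a lay at 63.8 CPM in WT and 414 CPM in A20ZF7, 6.48-fold (5.30–7.97). Fam169b was at 4.21-fold (3.25–5.49), Pde5a at 3.43-fold (2.76–4.27) and Ly6a at 1.35-fold (1.16–1.56). Here 14.2% of genes tested were past 2-fold and the median gene was at 1.34-fold, so Ly6a stood at the median. In A20ZF7 the level in these barcodes, 414, 182, 226 and 271 CPM, was close to the level in T cell and ILC barcodes, which was 1.04 times as high for Zc3h7a, 1.2 for Fam169b, 1.07 for Pde5a and 1.06 for Ly6a. Igha, which T cells and ILCs do not make, had in their barcodes 6.66% of its level in these low barcodes in WT and 11.6% in A20ZF7. Taking off free RNA at that share left lymphocyte levels of 95.4 and 382 CPM for Zc3h7a, 56.8 and 198 CPM for Fam169b, 81.8 and 215 CPM for Pde5a, and 144 and 255 CPM for Ly6a.

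In barcodes of 1 to 9 UMIs, Zc3h7a stood far apart. It lay at 82.8 CPM (59.1–113) in WT and 1991 CPM (1879–2109) in A20ZF7, 24.1-fold (17.6–33.8), the second largest of 3637 genes tested after Ndufb4 at 56.1-fold (9.74–2248, on 1 WT UMI). The A20ZF7 level there was above that in any class. Its UMIs were spread over 1155 barcodes, and 42.3% of these held no other UMI. Among A20ZF7 barcodes that held the other genes, that share was 44.7% for Fam169b, 45.3% for Pde5a and 33.5% for Ly6a. Fam169b was at 4.44-fold (2.58–8.10), and Pde5a and Ly6a at 1.61-fold and 1.45-fold. Of 2399 genes tested in T cell and ILC, stromal, 10 to 100 UMI and 1 to 9 UMI barcodes, 17 were 2-fold or more higher in A20ZF7 in all of them (0.709%), and 2 of the 17 were Zc3h7a and Fam169b. Pde5a and Ly6a were not among them.

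**Figure D5:**
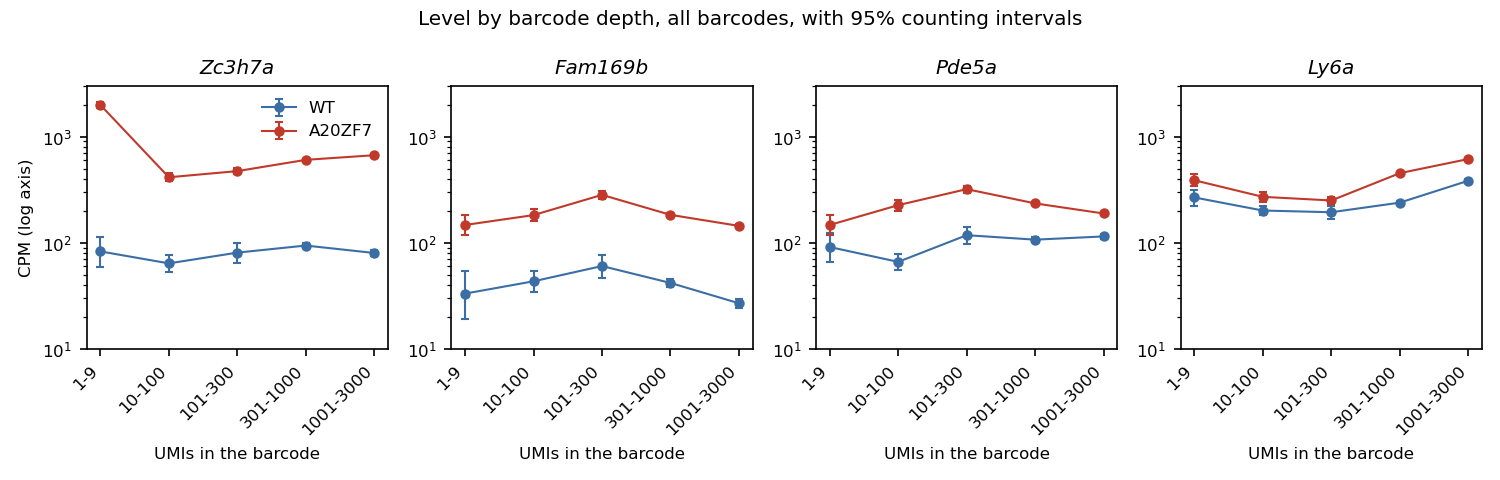
Level of each gene in all barcodes of a library by UMIs in the barcode, in WT (blue) and A20ZF7 (red), in CPM on a log axis with 95% counting intervals. The A20ZF7 line lies above the WT line at every depth, by 24.1-fold for Zc3h7a in barcodes of 1 to 9 UMIs and by 1.29-fold for Ly6a in barcodes of over 100 to 300 UMIs.

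At matched depth the lymphocyte folds varied little for the 4 genes. Zc3h7a was lower only in the range of 400 to 700 UMIs, where depth was not matched. Among T cell and ILC barcodes of over 700 to 1000 UMIs, Zc3h7a was at 4.66-fold, Fam169b at 3.93-fold, Pde5a at 2.69-fold and Ly6a at 1.8-fold. Among those of over 1000 to 2000 UMIs the folds were 4.31, 3.89, 3.03 and 1.97. Among those of 400 to 700 UMIs Zc3h7a was at 2.41-fold (1.61–3.79), below its interval over all depths, and Fam169b was at 4.8-fold, Pde5a at 3.22-fold and Ly6a at 1.81-fold. That shallow range held 210 WT barcodes, all at or over the WT threshold of 675 UMIs, and 4464 A20ZF7 barcodes.

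The WT mice could be told apart by hashtag, with 1014 T cell and ILC barcodes called for hashtag 7 and 1276 for hashtag 8. The separation was weak, with a median of 387 hashtag 7 UMIs in barcodes called for it and 117 in those called for the other. Zc3h7a lay at 93.5 and 111 CPM in the 2 mice, Fam169b at 62.7 and 63.5 CPM, Pde5a at 70.8 and 80.5 CPM, and Ly6a at 179.8 and 147 CPM. The ratios of the second mouse to the first lay between 0.819 and 1.19. Both mice are in 1 library, so these ratios hold no spread between libraries. The folds between genotypes chose the genes and are not weighed against them. Between these mice 3 of 3421 genes (0.0877%) were 2-fold or more apart in either direction. In plasma barcodes Ly6a was 1.33 times as high in the second mouse (1.07–1.67), with 51 and 58 barcodes. The spread between the A20ZF7 mice could not be measured.

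Of the genes nearest to the 4 on the chromosome, those beside Zc3h7a and Fam169b did not share their difference where they could be read. Beside Zc3h7a, T cell and ILC folds were 1.05 for Txndc11, 0.998 for Rsl1d1 and 1.28 for Gspt1, and stromal folds were 0.992, 0.999 and 1.17. Snn had 5 UMIs in WT lymphocytes. Beside Fam169b, Igf1r was at 0.717-fold and Arrdc4 at 0.953-fold in lymphocytes, with Pgpep1l and Nr2f2 at under 5 CPM there in both genotypes. In stroma Igf1r was at 0.956-fold and Arrdc4 at 1.0-fold. Nr2f2 lay at 132 CPM in WT and 66.9 CPM in A20ZF7 stroma, 0.507-fold (0.467–0.550). Beside Pde5a, Fnbp1l was at 0.430-fold and Bcar3 at under 4 CPM. Fabp2, the intestinal fatty acid binding protein of enterocytes, was at 0.179-fold in lymphocytes, 0.184-fold in stroma and 0.129-fold in barcodes of 10 to 100 UMIs. Beside Ly6a, its relative Ly6e was at 0.927-fold (0.890–0.965) in lymphocytes and 1.40-fold in stroma, Ly6c1 at 1.04-fold and 1.77-fold, and Ly6c2, under the filter with at most 30.7 CPM, at 1.69-fold and 2.24-fold. In barcodes of 10 to 100 UMIs Ly6c2 was at 0.813-fold. Ly6i had 2 UMIs in WT lymphocytes.

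Relatives of the 4 genes were read from the gene lists, and few that passed the filter reached 2-fold. The lists hold the 4 genes themselves, which were chosen on lymphocyte folds, so their place in a list carries no test. Of all genes tested, 2.38% were past 2-fold higher in lymphocytes and 4.94% in stroma. In T cells and ILCs 2 of 15 genes of the Ly6 family list passed the filter, Ly6a and Ly6e, and neither was past 2-fold. In stroma 3 passed and only Ly6a was past 2-fold. Members under that filter reached larger folds on few UMIs, such as Ly6k at 4.75-fold (1.55–23.7, on 3 WT UMIs) and Gpihbp1 at 3.25-fold in lymphocytes, and Ly6d at 3.95-fold and Ly6k at 3.63-fold in stroma, where Cd59a was at 0.442-fold. Of 21 phosphodiesterase and cyclic GMP genes, 6 were tested in lymphocytes, with Pde5a alone among them past 2-fold higher and Pde7b at 0.368-fold (0.338–0.401), and a median of 1.13-fold. Npr1, under the filter, was at 7.39-fold (1.22–302) on 1 WT UMI. In stroma 11 were tested, with Pde3b past 2-fold higher at 2.17-fold, Pde7a next at 1.47-fold, 2 genes past 2-fold lower and a median of 0.823-fold. The lower ones were Pde3a at 0.464-fold and Prkg1, the cyclic GMP-dependent kinase, at 0.463-fold, while the guanylate cyclase subunits Gucy1a1 and Gucy1b1 were at 0.651-fold and 0.624-fold, and Prkg2, under the filter, was at 0.421-fold. Of 17 genes in a list of CCCH zinc finger genes, roquins and the Fam169 pair, 11 were tested in each. Among those tested, Zc3h7a and Fam169b alone were past 2-fold higher in both, and Zfp36, which speeds decay of cytokine mRNA, was at 0.460-fold in lymphocytes and 0.634-fold in stroma. The medians were 1.04-fold and 1.13-fold. Under the filter, Zc3h12d was at 3.52-fold (2.62–4.84, on 47 and 650 UMIs) in lymphocytes and 7.09-fold (4.75–11, on 26 and 305 UMIs) in stroma, and Zc3h12c was at 2.01-fold in lymphocytes.

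Interferon-stimulated genes and NF-kB targets were read beside them, since Ly6a responds to interferon and A20 restrains NF-kB. Of 13 interferon-stimulated genes tested in lymphocytes 1 was past 2-fold, Ifi27l2a at 2.10-fold, and none was past 2-fold lower, with a median of 1.1-fold. Under the filter Gbp3 was at 2.02-fold and Irf7 at 0.611-fold. In stroma 4 of 14 were past 2-fold, with a median of 1.55-fold, while Xaf1 was lowest at 1.0-fold and Ifi44, under the filter, was at 2.77-fold. Of 16 NF-kB targets tested in lymphocytes 1 was past 2-fold, Ccl20 at 4.61-fold (3.75–5.72), with a median of 1.18-fold, and under the filter Bcl3 was at 2.71-fold and Tnf at 0.337-fold. In stroma 5 of 11 were past 2-fold, with a median of 1.96-fold. Among those 5 was Traf1 at 2.84-fold, and under the filter Ccl20 was at 14.4-fold, Tnip3 at 4.47-fold and Tnf at 0.801-fold. T cell markers lay at 309 and 776 CPM in these stromal barcodes and Ptprc, the marker of blood cells, at 146 and 359 CPM. In stromal barcodes without a T cell marker UMI, 4 of 15 interferon-stimulated genes tested were past 2-fold, with a median of 1.62-fold, and 6 of 10 NF-kB targets, with a median of 2.05-fold. Of all 4066 genes tested there, 4.5% were past 2-fold, with a median of 1.0-fold. Over all genes tested the medians were 1.02-fold in lymphocytes and 0.99-fold in stroma, with 2.38% and 4.94% of genes past 2-fold higher.

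Over the 18 points of 9 classes in both libraries, the genes closest to each of the 4 were named by Pearson's r of log2(CPM + 10), over 6498 genes and as a description, since classes of a library share its depth and free RNA. Zc3h7a was closest to Ndufb4 (r = 0.857), Il17f (0.843) and Fam169b (0.839). Fam169b was closest to Cd5, a surface protein of T cells (0.947), Hist1h2ae (0.943) and Tnfrsf9 (0.943). Pde5a was closest to Lrba (0.933), Cpe (0.904) and Adamts6 (0.882), and Ly6a to Dnm3 (0.765), Setbp1 (0.763) and Adgrl2 (0.756). Among the 4 themselves r was highest between Zc3h7a and Fam169b and lowest between Pde5a and Ly6a (0.0056). The points include the lymphocyte classes of both libraries, whose levels chose the 4 genes, so these values carry no test. Of these near genes, Ndufb4 was 8.21-fold higher in lymphocytes and 7.57-fold higher in stroma, while Lrba was at 1.53-fold and 1.09-fold.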

How the data were processed

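Gene expression and antibody UMIs were counted by the authors with Cell Ranger on 10x 5′ libraries, and the deposited count matrices hold raw, unfiltered UMI counts per gene and barcode. The submitters' processing notes name Cell Ranger 7.1, R 4.3.3, Seurat 4.3 and mm10, whereas the headers of the gene expression matrices name Cell Ranger 8.0.0. The antibody oligo sequences come from a deposited reference, an other kind of value that holds no measurement.

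The members and gene lists were chosen with earlier results of these data known. Barcodes needed 200 to 2500 genes, at most 15% mitochondrial counts and an order-of-magnitude UMI threshold (0.1 times the 0.99 quantile of expected cells), and WT barcodes to which HTODemux (Seurat 5.3.0, quantile 0.99) gave 2 hashtags were removed, which could not be done for A20ZF7. Other doublets were left in. Totals are over the 31950 gene IDs listed in both libraries. A class needed 2 UMIs of its own markers and at least 3 times those of any other B cell, myeloid, stromal, endothelial, epithelial, mast cell or glia list. The ILC classes were also held against each other's list, and the classes outside T cells and ILCs against the T cell list. T cell and stromal barcodes were not held against the ILC lists. CD8 T barcodes had Cd8 and no Cd4 UMIs, and other T barcodes had no Cd8 UMI. T cell barcodes with both Cd8 and Cd4 UMIs were in neither class. ILC barcodes had no T cell UMI. After marker values had been seen, barcodes with over 5% of UMIs from plasma genes were made a class of their own, ILC3 barcodes needed a UMI of a core ILC3 gene, and stroma was divided into fibroblast and muscle. UMIs were summed per class (Python 3.11.15, numpy 2.4.6, scipy 1.17.1, pandas 2.3.3, matplotlib 3.10.9). CPM have exact Poisson, shares exact binomial and ratios exact conditional intervals at 95%; ratios of ratios have log-method intervals. A count of 0 was set to 3 UMIs for ranks and medians. There is no test, because cells are not replicates and each genotype is 1 library. The interval and the gates were tested on simulated data.

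Genes named beyond the members are the 3 closest in pattern to each, up to 10 with the largest minimum fold over the 4 lymphocyte classes, the 2 nearest protein-coding genes on each side, and the 2 largest and the smallest folds of each list with 20 UMIs or more; a few others were named after their values had been seen, among them 5730419F03Rik, Igha, Iigp1, Traf1, Zc3h12c, Zc3h12d, Ptprc and the lower cyclic GMP genes. Mitochondrial, ribosomal protein, immunoglobulin, receptor segment, sex-linked, Gm and Rik genes were left out of the first 2 of these. One neighbour of Pde5a that a single library lists was not used here, and some results are not reported here. Alternatives changed the cell threshold, gate, totals, normalization, free RNA, WT mice and fold.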

Additional observations from a re-analysis of the deposited data

Results flagged for a closer look

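Ly6a differed between the genotypes in opposite directions by class. It was 1.82-fold higher in A20ZF7 in T cell and ILC barcodes, and in plasma barcodes it was at 0.714-fold and in endothelial barcodes at 0.677-fold. The difference between these folds was not tested, since each genotype is 1 library. In plasma barcodes the 2 WT mice were at 783 and 1043 CPM, both above the 586 CPM of A20ZF7, and 26.8% of all genes tested in plasma barcodes were 2-fold or more higher in A20ZF7, with a median of 1.52-fold. The median depth of plasma barcodes was 3168.5 UMIs in WT and 1443 UMIs in A20ZF7. After thinning to 500 UMIs, 22.7% (17.8–28.3) of WT and 20.3% (16.4–24.8) of A20ZF7 plasma barcodes held a Ly6a UMI, with intervals that overlap, and 59.1% and 36.8% without thinning. In endothelial barcodes the thinned shares were 37.8% (31.3–44.6) and 33.3% (27.6–39.4).

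A signal of Zc3h7a appeared in barcodes that no comparison of cells uses. In barcodes of 1 to 9 UMIs it made up 1991 CPM in A20ZF7, above the 82.8 CPM in WT. Ndufb4 was the one gene with a larger fold there, on 1 UMI in WT and 68 in A20ZF7.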

How the results depend on the processing

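No paired analysis was possible because each genotype is 1 library of pooled mice and no number pairs them. With 1 library per genotype, genotype and library cannot be told apart, and the lists of gene IDs differ between the libraries. Low UMI counts limit Fam169b and Pde5a in WT myeloid (1 UMI each) and plasma barcodes (5 UMIs each) and Fam169b in WT ILC barcodes (3 and 4 UMIs).

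Under all alternatives run, the folds in T cell and ILC barcodes stayed above 1, from 3.87 to 4.90 for Zc3h7a, 3.40 to 5.69 for Fam169b, 2.63 to 3.41 for Pde5a and 1.36 to 2.48 for Ly6a. Of these and the stromal folds under the alternatives, 24 left the counting interval without changing direction, 2 changed direction and 126 did neither. Assignment by profile likelihood gave 4.90 for Zc3h7a and 2.13 for Ly6a. With hashtag 8 barcodes alone as WT, Zc3h7a was at 3.87, and with hashtag 7 alone Pde5a was at 3.41 and Ly6a at 1.60. Chosen after seeing the data, the geometric mean of the classes gave 5.69 for Fam169b and 2.48 for Ly6a, and the first gate, without a plasma limit or core ILC3 genes, gave 1.36 for Ly6a and turned its ILC3 fold to 0.800, while dropping 1 of these conditions at a time left that fold at 1.87 and 2.63. Profile likelihood turned the myeloid Ly6a fold to 0.758.

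In stromal barcodes with other lineages at 0 UMIs, ILC and plasma markers not among them, Zc3h7a was at 13.6, Fam169b at 14.3, Pde5a at 0.994 and Ly6a at 2.15. With free RNA taken off, Pde5a was at 0.967. The direction of Pde5a in stroma thus depended on these choices. Against hashtag 7 alone, Fam169b was at 5.44 and Pde5a at 1.41, and against hashtag 8 alone Zc3h7a was at 11.6 and Fam169b at 5.16. The hashtag alternatives used called barcodes only, 1201 and 1335 of 7466 in WT stroma. Without T cell marker UMIs, a choice made after seeing the data, Fam169b was at 13.5, Pde5a at 1.02 and Ly6a at 2.17. In fibroblasts Pde5a was at 1.41 and Ly6a at 1.67. In muscle Zc3h7a was at 10.8, Fam169b at 12.0, Pde5a at 1.06 and Ly6a at 4.21. Against hashtag 7 and hashtag 8 alone, Ly6a in muscle was at 1.90 and 2.25.

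Without a minimum, 1023 of 16146 genes in T cells and ILCs (6.34%) were past 2-fold. In stroma 1653 of 18949 were (8.72%), and in all 4 classes 34 of 9194 (0.37%). With the minimum, the counts at 1.5-fold were 234 of 3529 (6.63%), 422 of 4071 (10.4%) and 31 of 2512 (1.23%). At 3-fold they were 26 (0.737%), 55 (1.35%) and 3 (0.119%) of the same genes. Of the 4 genes, 3 passed 1.5-fold and 1 passed 3-fold in all 4 classes, and such folds chose them.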
